A study of Mus musculus with 18 samples.

Results

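The resting transcriptome of untreated 3T3-F442A adipocytes was measured on 9 of the 18 Affymetrix MG_U74Av2 arrays of a growth hormone study. These cells are mouse preadipocytes of an established line that accumulate fat once differentiated in culture. The members were the arrays whose titles carry the word Control, so each of experiments 1, 2 and 3 supplied 1 array from each of the times 30 min, 4 h and 48 h. The labels give total RNA from 3T3-F442A adipocytes as the source of every array and name no other agent, genotype or culture detail for the controls. The other 9 arrays received growth hormone and were not used. The 3 experiments thus repeat a measurement on cells of 1 origin. Nothing beyond the experiment number says that the cultures were separate, and the p-values below measure the spread between these arrays.

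White adipocytes store triglyceride in a lipid droplet coated by perilipins and release it as fatty acid through a short chain of lipases. The fat cell programme is driven by the nuclear receptor encoded by Pparg together with C/EBP transcription factors, and differentiated cells secrete hormones such as adiponectin, resistin and leptin. 3T3-F442A cells were derived from embryonic mouse fibroblasts, and such cells also make collagens and other matrix proteins before they differentiate.

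Each array gives a signal intensity for 12488 probe sets, short sets of oligonucleotides that each read a transcript. Of the 12422 that were not manufacturer's controls, 10833 carried a single gene symbol, for 8251 genes, and the brightest probe set stood for its gene. A gene's rank orders it by mean signal over the 9 arrays from 1 (brightest) to 8251, and its percentile is the share of the other genes that were dimmer. Rank orders signals and not numbers of transcripts. In the 1615 genes with several probe sets and a bright one, the brightest exceeded the dimmest by a median of 6.09-fold, and by over 10-fold in 38.2%. Background was read from 19 manufacturer's probe sets against transcripts of yeast or Bacillus, which mouse cells do not make. Their median was 13.9 and their maximum 104.1 signal units, and the highest of them on each array, 50.1 to 104.1, served as that array's background limit.

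Array medians ran from 149.7 to 172.0, and arrays of the same experiment correlated at 0.959 to 0.98 against 0.94 to 0.976 for arrays of different experiments. Some features of the arrays moved with the experiment. The ratio of 3-prime to 5-prime signal of the pyruvate carboxylase control probe sets was 6.63 to 9.07 in experiment 1, 3.78 to 4.85 in experiment 2 and 2.62 to 3.03 in experiment 3. The same ratio for Gapdh was 0.9 to 0.931, 0.786 to 0.814 and 0.758 to 0.778. For Actb it was 1.739 to 2.04, 1.216 to 1.449 and 1.494 to 1.661, so by this ratio experiment 2 was lowest. The 48 h control of experiment 3 is titled 48 h but described as 4 h, and together with the 30 min control of experiment 1 it had the lowest mean correlation with the other arrays, 0.957 against 0.966 to 0.969. The part of these features in the differences between experiments given below was not tested.

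The marker genes of adipocytes were bright on all arrays. Adipoq, which encodes the hormone adiponectin, had the third highest signal of all 8251 genes, at 31914, 35187 and 30212 in experiment 1, 30347, 29083 and 30107 in experiment 2 and 26643, 27648 and 34855 in experiment 3 (30 min, 4 h and 48 h in that order, here and below). Its mean was 30666 ± 2915 (SD, n = 9), and the 3 experiments overlapped. Lpl, the lipase that frees fatty acids from lipoproteins, ranked 11 at 22815 ± 2591 (SD, n = 9), and its second probe set averaged 10749 units. Pparg read 3267, 2859 and 2559.9 in experiment 1, 3773, 3223 and 2641 in experiment 2 and 2463, 2162 and 2658 in experiment 3. Its mean of 2845 placed it at percentile 93.8, from a probe set of the _s_at kind, which can read related transcripts. Fabp4, the fatty acid carrier of adipocytes, stood lower, at 1128 ± 125 (SD, n = 9) and percentile 82.6, and its 9 values ran only from 984 to 1321. All 4 exceeded the background limit on all 9 arrays, and none passed the test between experiments. Cfd, the fifth marker, was not paired with a probe set in the tables used here.

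**Figure D1:**
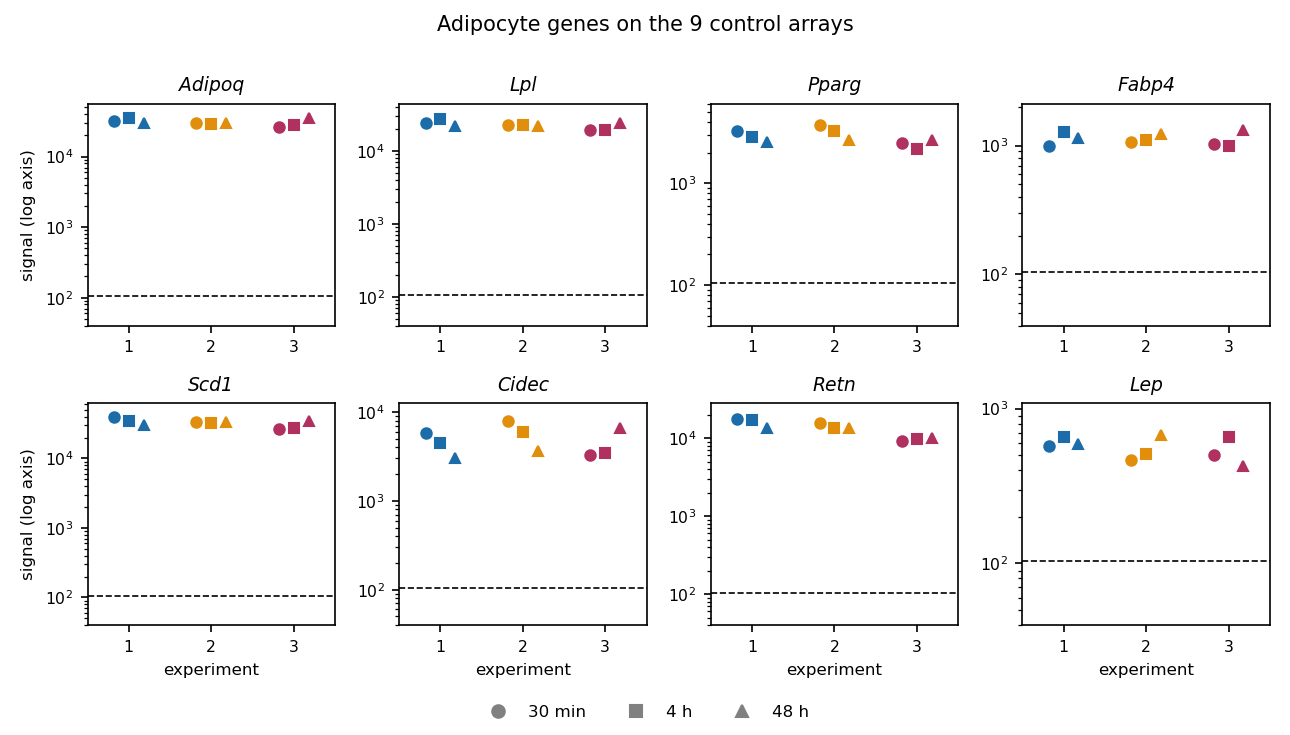
Signal of 8 adipocyte genes on each control array, on a log axis in signal units, with the experiment on the horizontal axis and the collection time as the marker shape; the dashed line is the highest background limit, 104.1. Adipoq, Lpl and Scd1 lie between 19271 and 39129 on every array, and Retn is lower in experiment 3 than in experiments 1 and 2.

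Scd1, the desaturase that makes monounsaturated fatty acids, headed the ranking at 32607 ± 3878 (SD, n = 9), read by a _g_at probe set, a kind that shares probes with another set of the same gene. Eef1a1, a translation elongation factor, followed at 30843, and Rpl41, a ribosomal protein, had rank 4 at 29870. Ribosomal proteins made up 10 of the 25 brightest genes, where the list of adipocyte genes supplied 6 and the list of secreted factors 3, with Lpl on both lists. The 6 were Scd1, Adipoq, Lpl, Scd2 at 18547, Aldoa at 16787 and Pnpla2, the first lipase of triglyceride breakdown, at 15862. The secreted ones beside Lpl were Hp, the haemoglobin-binding protein haptoglobin, at 28883, and Cst3, a cysteine protease inhibitor, at 19218. The remaining bright genes included the ferritin chain Fth1 at 26906, the lectin Lgals1 at 19999, Tpt1 at 22858, the G protein subunit Gnas at 17514 and the mitochondrial membrane protein Tspo at 16195. No gene of the mitochondrial, matrix or receptor lists was among the 25. Rpl41 and Rps28 were read by _f_at probe sets, and ribosomal protein probe sets can also read the near-identical copies of these genes. The 100 brightest genes carried 20.2% of the summed signal of the named genes and held 10 adipocyte, 10 mitochondrial, 6 matrix, 6 secreted and 0 receptor genes.

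The promoters of the brightest gene of several groups are shown because they differ in CG dinucleotides, a C followed by a G, which are rare in most of the mouse genome and dense at many broadly active promoters. Each is the 250 bases before the first transcription start that RefSeq lists for the gene, build GRCm38.p6, 5′ to 3′ on the gene's strand, with CG and TATAAA in capitals. Adipoq lies at chr16:23146286-23146535 on the + strand, Rpl41 at chr10:128549169-128549418 on the − strand, Cox6a1 at chr5:115348959-115349208 on the − strand, Bgn at chrX:73483351-73483600 on the + strand, and H2-D1 at chr17:35262844-35263093 on the + strand.
Adipoq: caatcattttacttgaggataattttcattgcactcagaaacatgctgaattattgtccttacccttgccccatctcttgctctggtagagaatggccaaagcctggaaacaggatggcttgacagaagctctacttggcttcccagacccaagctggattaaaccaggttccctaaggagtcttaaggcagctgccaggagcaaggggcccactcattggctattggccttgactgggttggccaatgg
Rpl41: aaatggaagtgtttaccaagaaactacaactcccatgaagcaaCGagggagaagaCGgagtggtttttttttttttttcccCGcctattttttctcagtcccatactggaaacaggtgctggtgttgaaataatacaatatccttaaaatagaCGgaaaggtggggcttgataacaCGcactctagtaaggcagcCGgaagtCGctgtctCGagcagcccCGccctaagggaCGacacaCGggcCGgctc
Cox6a1: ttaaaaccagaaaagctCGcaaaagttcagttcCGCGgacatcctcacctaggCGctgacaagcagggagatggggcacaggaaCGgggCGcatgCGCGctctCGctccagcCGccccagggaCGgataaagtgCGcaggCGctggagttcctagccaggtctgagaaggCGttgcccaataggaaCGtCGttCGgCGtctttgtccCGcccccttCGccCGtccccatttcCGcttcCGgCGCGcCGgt
Bgn: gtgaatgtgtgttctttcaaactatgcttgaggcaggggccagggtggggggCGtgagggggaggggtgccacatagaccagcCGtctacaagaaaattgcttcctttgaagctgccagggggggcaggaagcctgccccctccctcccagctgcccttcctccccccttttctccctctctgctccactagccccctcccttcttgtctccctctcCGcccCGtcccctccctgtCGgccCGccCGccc
H2-D1: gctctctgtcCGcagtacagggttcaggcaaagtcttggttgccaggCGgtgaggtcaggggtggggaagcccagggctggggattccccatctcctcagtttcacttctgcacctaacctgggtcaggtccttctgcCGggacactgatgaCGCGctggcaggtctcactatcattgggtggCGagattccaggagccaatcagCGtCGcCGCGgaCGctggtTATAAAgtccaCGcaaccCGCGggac
The Adipoq stretch holds 0 CG, that of Bgn, the brightest matrix gene, 7, that of Rpl41 12, that of the brightest gene with TATAAA, the histocompatibility gene H2-D1, 14, and that of the brightest mitochondrial gene Cox6a1 26. In H2-D1 the TATAAA begins 26 bases before the start.

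Across the 6576 named genes with a promoter window of 300 bases, from 250 before to 50 after the start, the median number of CG was 19. It was 22 in the 3958 genes above the background limit on all 9 arrays and 8 in the 1072 genes below it on all 9. By signal the median rose from 8 in genes up to percentile 10 to 22 between percentiles 50 and 75. It stayed at 22 up to percentile 99 and was 19 in the 66 genes above. The mitochondrial genes had a median of 19.5 (74 genes), receptor genes 20 (79), adipocyte genes 15 (42), matrix genes 11.5 (50) and secreted factors 10 (52). TATAAA, searched on the gene's strand with its first base 40 to 20 bases before the start, occurred in 3.1% of all windows, in 1.5% of those of genes above the limit on all arrays and in 6.8% of those below it on all arrays. It was found for 7 of 52 secreted factors and 0 of 74 mitochondrial genes. These counts describe letters in the windows and were not tested. Adipoq, with 0 CG in its 300 bases, was far from the median of the bright genes.

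**Figure D2:**
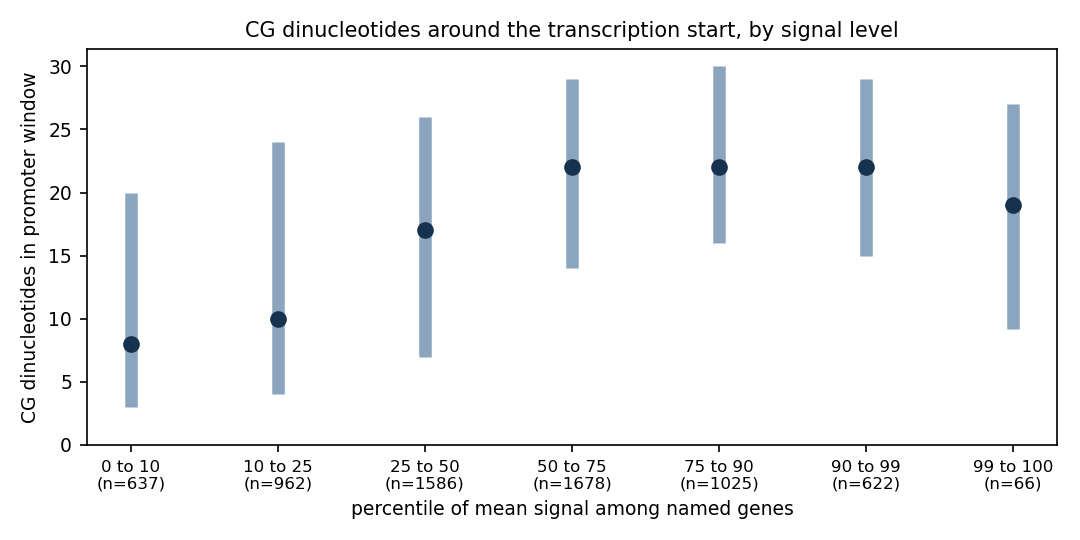
Number of CG dinucleotides in the 300 bases around the transcription start (vertical axis) for genes grouped by percentile of mean signal (horizontal axis); dots are medians, bars run from the lower to the upper quartile, and n is the number of genes. The median is 8 in the lowest group, 22 between percentiles 50 and 99 and 19 in the highest group.

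The adipocyte list had a median percentile of 92.1, against 50 over all named genes, and 48 of its 51 genes on the array exceeded the background limit on all 9 arrays. Over all named genes that share was 58.6%, or 4836 of 8251. The genes of fatty acid and triglyceride synthesis were led by Scd1, Scd2 and Gpd1, which makes glycerol phosphate, at 8920.3. Fasn, the fatty acid synthase, averaged 5384, and Dgat1, which adds the last fatty acid of triglyceride, 5767. A second Dgat1 probe set, of the _f_at kind, averaged 210.7. The dimmest of this group were Pck1 at 225 and the elongase Elovl6 at 133.

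Among genes of the lipid droplet, Pnpla2 was followed by the droplet coat gene Plin2 at 7848, the hormone-sensitive lipase Lipe at 6843 and the droplet fusion gene Cidec at 4899.9. G0s2, an inhibitor of Pnpla2, stood at 1033 and Mgll, which cleaves the last fatty acid, at 145. In uptake and binding, Lpl was followed by the acyl-CoA carrier Dbi at 15403 and by Fabp5 at 3424, above Fabp4. The fatty acid transporter Cd36 read 292 and the glycerol channel Aqp7 240.3. Of the glucose uptake group, the insulin-sensitive transporter Slc2a4 averaged 1177 and the widely used Slc2a1 608.

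The transcription factors of the list all exceeded the limit on all arrays. Cebpb averaged 7434, Cebpa 5289 and the lipogenic factor Srebf1 3795, all above Pparg. The dimmest were Nr1h3, an oxysterol receptor, at 814 and Ebf1 at 710.5. Among adipokines, Adipoq was followed by Retn, which encodes resistin, at 13323 and by Agt, angiotensinogen, at 4900. Lep, which encodes leptin, was far down this order at 562 ± 92.2 (SD, n = 9), percentile 67.4, and Rbp4 lay below the limit on all 9 arrays.

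Mitochondrial genes had the highest median percentile of the 5 main lists, 94.1, with 81 of 91 above the limit on all arrays. By role, the median percentile was 97 for complexes II and III, 95.9 for complex I, 94.8 for the citric acid cycle, 92.1 for fatty acid oxidation, 88.8 for ATP synthase, 84.7 for carriers and 80.2 for complex IV. The brightest respiratory genes were Cox6a1 at 15404, Cyc1, cytochrome c1, at 15255, Uqcrq at 14051 and Cox6c at 12928. Complex I was led by Ndufv1 at 11652, Ndufa7 at 11252 and Ndufb5 at 10222, and its dimmest genes were Ndufa1 at 149 and Ndufs4 at 96.8.

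In the other roles, Atp5l at 9438, Mdh2, malate dehydrogenase, at 9218, the acyl-CoA dehydrogenase Acadm at 7227 and the ADP/ATP carrier Slc25a4 at 6428 led their groups. Several genes that respiring cells need had dim probe sets, among them Idh3b at 19.2, Acadvl at 17, Vdac1 at 36.3 and Cox5a at 40.8. A dim probe set therefore does not show that a transcript was missing. Cox7a1 and Cox6a2, the forms of complex IV subunits used in muscle, read 14.4 and 55.9.

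Matrix genes covered the whole range of signals, with a median percentile of 69.2 and 47 of 70 above the limit on all arrays. Collagen chains were split. Col6a3 at 14522, Col6a1 at 10839, the fibrillar chain Col3a1 at 9840.2 and the basement membrane chains Col4a1 at 9245 and Col4a2 at 7856 were among the brightest genes of the array. The cartilage chain Col2a1 read 41.3, Col4a4 16.2 and Col4a3 6.46, all below the overall limit of 104.1. Of the glycoproteins and proteoglycans, Bgn, biglycan, averaged 14578, Dcn, decorin, 6997 and Postn, periostin, 4857, and the dimmest were Lama2 at 73.1 and Fmod at 29.6. Among processing genes and proteases the collagen chaperone Serpinh1 at 5408, Mmp14 at 3129 and Mmp11 at 2829 led, and Mmp13 at 39.9 and Mmp9 at 37 were last.

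Secreted factors had a median percentile of 49.2, close to that of all genes, and their roles differed. The group of complement and acute phase genes, in which Lpl, Cst3, B2m and Plat were also listed, had a median of 88.5, led by Hp, Lpl and Cst3, with the serum amyloid gene Saa3 at 14342 and the iron carrier Lcn2 at 6613. Chemokines and cytokines had a median of 35.8. Within them the neutrophil chemokines Cxcl1 at 9660 and Cxcl5 at 5088, together with Ccl9 at 6265, were bright, and Ifng at 12.5 and Il11 at 11.8 were dimmest. Il1b read 15.1 and Tnf 33.2. Growth factors and their binding proteins had a median of 37.7, led by the preadipocyte factor Dlk1 at 4561, the granulin precursor Grn at 3272 and Igf2 at 3187, with Igf1 at 938. Fgf2 at 23.6 and Frzb at 11.3 were last.

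Receptor genes had a median percentile of 49.7, and 53 of 93 exceeded the limit on all arrays. Among hormone receptors Ghr, the growth hormone receptor, was brightest at 3495 ± 950 (SD, n = 9), percentile 95.3. The adiponectin receptor Adipor2 followed at 2244, and Igf2r, which binds mannose phosphate and insulin-like growth factor 2, at 1781. The insulin receptor Insr read 49.2 and Lepr, the leptin receptor, 29.4. Itgb1 at 7566, Pdgfra at 3669 and Itgav at 1779.6 led the growth factor and adhesion receptors, and Kit at 21.7 and Tgfbr2 at 16.9 were last. Among cytokine receptors, Tnfrsf1a averaged 3105, Osmr, which binds oncostatin M, 2429.6 and the shared chain Il6st 1599, and the chemokine receptor Cxcr4 8.11. Lrp1 at 4174 and the HDL receptor Scarb1 at 3406 led the lipoprotein receptors, and Olr1 at 31.7 was last. Of the nuclear receptors, Pparg, the thyroid hormone receptor Thra at 2438 and Nr4a1 at 1478 were brightest, and the oestrogen receptor Esr2 at 11.3 and Rxrg at 13.3 dimmest.

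**Figure D3:**
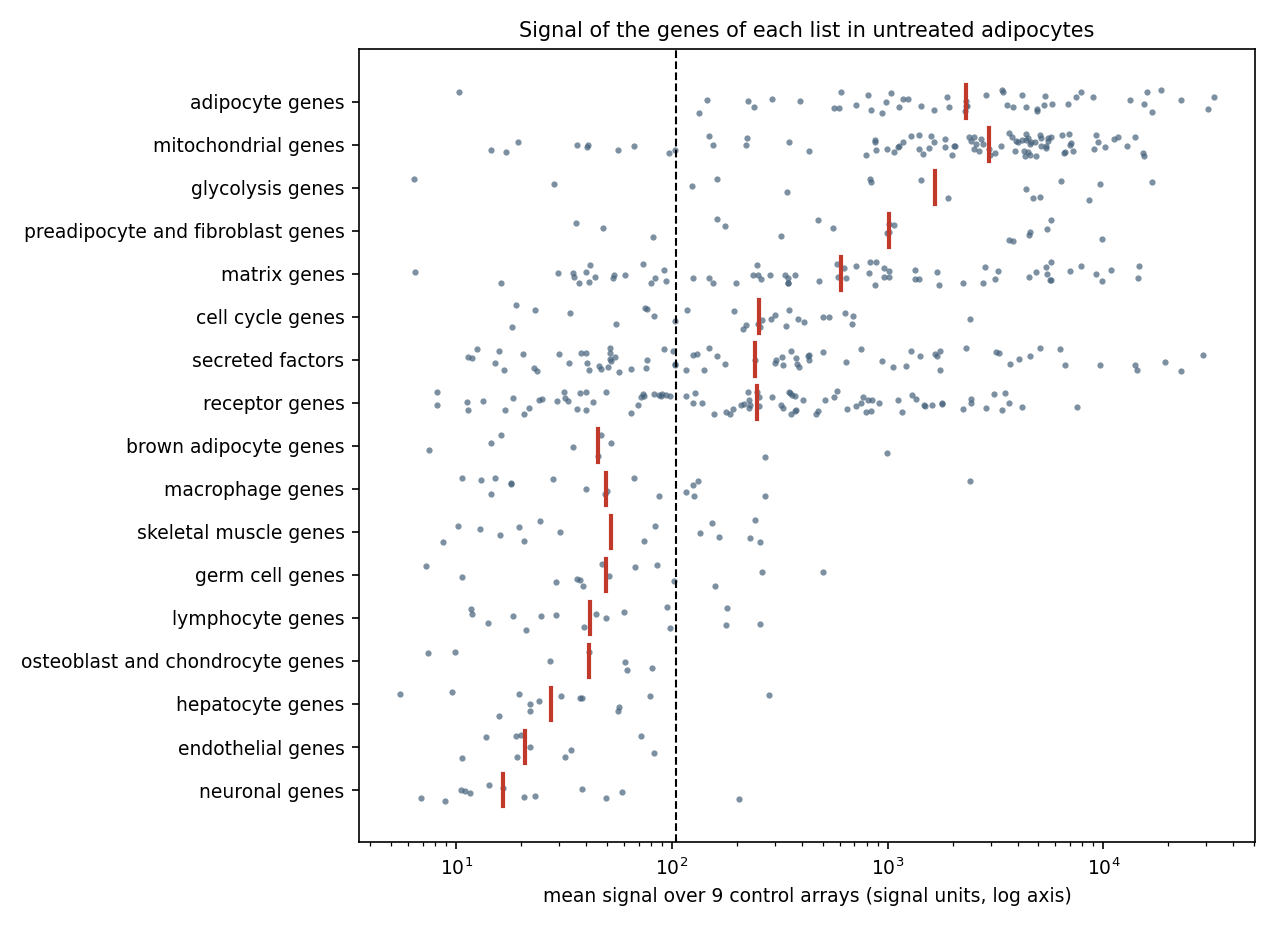
Mean signal over the 9 control arrays, on a log axis in signal units, of every gene of each list; each dot is a gene, the red bar is the list's median and the dashed line is the highest background limit, 104.1. The adipocyte, mitochondrial, glycolysis and fibroblast lists have their medians above 1000 units, and the lists of brown adipocyte, blood, muscle, skeletal, liver, endothelial, neuronal and germ cell genes have theirs below the line.

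Genes of other cell types were mostly at background. Of the 8251 named genes, 1383 (16.8%) lay below the limit on all 9 arrays and 2032 (24.6%) were above it on some. None of the 10 endothelial genes and none of the 7 osteoblast and chondrocyte genes exceeded it on all arrays, and Cdh5 at 10.6, Kdr at 32.1 and Pecam1 at 71.7 were near the non-mouse probe sets. Of 13 neuronal genes, Stmn2 at 206 exceeded it on all arrays, and of 14 hepatocyte genes Cyp2e1 at 282, with Alb at 38.1. Of 16 lymphocyte genes Ms4a1 at 257 and Cd4 at 178 did, with the T cell chain Cd3e at 29.1. Of 16 muscle genes Myod1 at 241 and Des at 229.9 did, with Myog at 83.1. Of 14 germ cell genes Tnp1 at 500.3, Spata6 at 260.1 and Odf1 at 158 did. These single genes are probe sets above the limit in lists whose median was below it.

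Macrophages accompany adipocytes in fat tissue. Of 18 macrophage genes, Cd14, a co-receptor for bacterial lipopolysaccharide, averaged 2407 and Cd68 270.2 above the limit on all arrays, and 8 lay below it on all arrays. The pan-leukocyte gene Ptprc read 10.6, Adgre1 28.1, Itgam 17.9 and Csf1r 116. Of 9 brown adipocyte genes, Cox8b at 989, from an _r_at probe set, and Cidea at 271 were above the limit on all arrays, and Ucp1, the uncoupling protein of brown fat, read 45.5, with Dio2 at 51.9 and Ppargc1a at 46.6.

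Preadipocyte and fibroblast genes were the exception, with a median percentile of 80.6 and 15 of 19 above the limit on all arrays. They included Dlk1, Pdgfra, the calcium-binding S100a4 at 3806, the collagens Col1a1 at 5729.9 and Col1a2 at 5466, Sparc at 4529, Twist2 at 1074, Acta2 at 1014, Fn1 at 1014, Thy1 at 990.2, Twist1 at 556, Pdgfrb at 475, Prrx1 at 319, Col3a1 and Gata2 at 177. Vim, which fibroblasts make in quantity, had a dim probe set at 81.8. Arrays of whole cultures cannot tell fewer cells of a type from less RNA per cell. Cell cycle genes were at a median percentile of 50, with Cdk1 at 635, Mki67 at 104 and Top2a at 33.5, and the cell cycle inhibitor Cdkn2c at 2400.3. Glycolysis genes had a median of 88.2.

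The rank order of genes differed little between experiments. Over the 8251 genes, which are not independent of each other, the Spearman correlation of the experiment means was 0.987 between experiments 1 and 2, 0.975 between 1 and 3 and 0.979 between 2 and 3, as a description. The 100 brightest genes of the experiments shared 88, 79 and 80 in the same order, and 76 were common to all 3. The median percentile of the mitochondrial list was 93 to 96.4 and that of the adipocyte list 90.9 to 93.8 on single arrays, and matrix genes moved over 60.7 to 74.3.

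In the 4836 genes above the limit on all 9 arrays, the median standard deviation over the arrays was 0.239 on the log2 scale. The standard deviation of the 3 experiment means was 0.159 and the spread left after experiment and time 0.182. Experiment took a median of 38.7% of a gene's variation and collection time 19.3%, each with 2 degrees of freedom. By degrees of freedom alone each share would be about 25%. The spread depended on signal. Below percentile 10, where mean signals were 21.8 or less, the residual standard deviation was 0.238 and that of the experiment means 0.127. Between percentiles 10 and 25 they were 0.429 and 0.239, and above percentile 99 they were 0.128 and 0.134. Below percentile 10 the mean signals are smaller than the 25 added to each signal before taking log2, which narrows differences there.

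**Figure D4:**
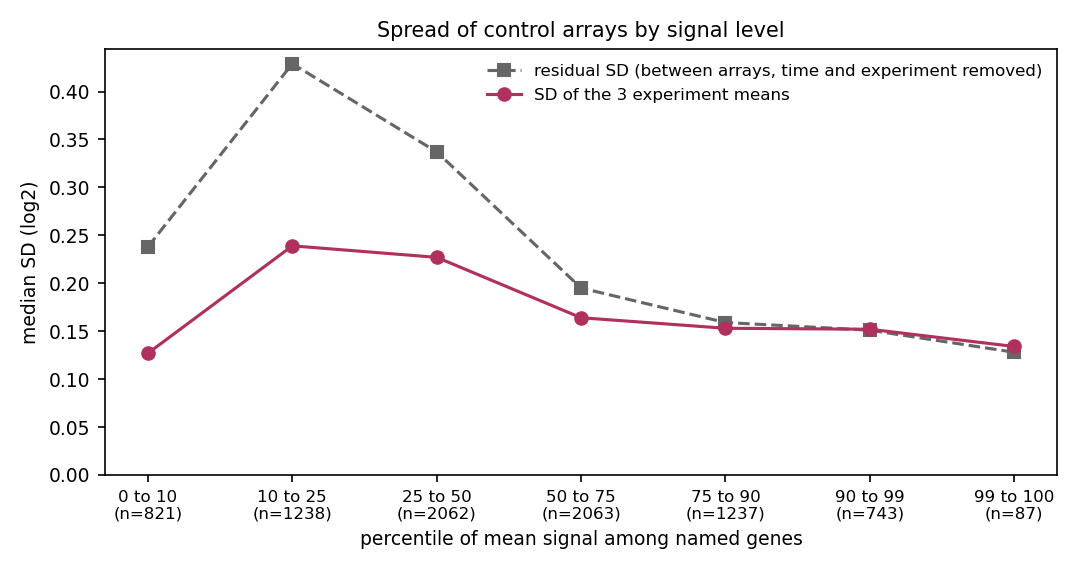
Median standard deviation on the log2(signal + 25) scale (vertical axis) of the 3 experiment means and of the residual left after experiment and time, for genes grouped by percentile of mean signal (horizontal axis), with n genes in each group. The residual is 0.238 below percentile 10, rises to 0.429 between percentiles 10 and 25 and falls from there to 0.128 above percentile 99, where it lies near the spread between experiments.

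Experiment 3 stood apart from experiments 1 and 2. With limma over all 12422 probe sets, 34 (0.274%) differed between experiments at an adjusted p below 0.05, and 2053 (16.5%) had an unadjusted p below 0.05. Pair by pair, 0 probe sets were called in either direction between experiments 1 and 2 (limma) and, with these experiments fitted alone, 849 had an unadjusted p below 0.05. In experiment 3, 47 were higher (0.378%) and 56 lower (0.451%) than in experiment 1. Against experiment 2, 36 were higher (0.29%) and 47 lower (0.378%) in experiment 3. Among the named genes 24 of 8251 (0.291%) were called, and experiment 3 was highest in 12 and lowest in 12. Restricted to the 7173 probe sets with mean signal above the limit, 406 (5.66%) were called, or 322 of 5453 genes (5.91%). A mean can pass the limit through the experiment where a gene is high. Of the 4835 genes tested there that were above the limit on all 9 arrays, 267 were called. The 34 became 9 with 16 and 293 with 100 in place of 25 added to the signal. Leaving out any 1 experiment gave 0 over all probe sets, and 194, 94 and 0 above the limit without experiments 1, 2 and 3. Without the 48 h control of experiment 3 the number was 0 over all probe sets, with 2094 at an unadjusted p below 0.05, and 476 above the limit, of which 265 were shared with the 406. The 3 arrays of experiment 3 lay below the 6 others for 508 genes (6.16%) and above them for 551 (6.68%), against 190 (2.3%) and 195 (2.36%) for experiment 1 and 127 (1.54%) and 89 (1.08%) for experiment 2.

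Among the genes called as lowest in experiment 3 were the metallothioneins Mt1 and Mt2, Apod, Ifi47 and Ifi207. Mt2, a metallothionein, read 5867, 7349 and 1728 in experiment 1, 6642, 7294 and 2706 in experiment 2 and 1449.9, 1508 and 465 in experiment 3. All arrays of experiment 3 were below all others, and the 48 h array was the lowest of its experiment each time. The difference of experiment 3 from experiment 2 was -2.30 ± 0.16 (log2, standard error; limma, adjusted p = 0.022). Its relative Mt1 differed by -1.42 ± 0.16 from experiment 1 (adjusted p = 0.043, limma). Apod, a lipid-binding apolipoprotein, was 1469.7, 1807 and 1786 in experiment 1, 511, 564 and 738 in experiment 2 and 363, 296 and 217 in experiment 3. The experiments formed 3 separate levels, and experiment 3 differed from experiment 1 by -2.46 ± 0.24 (limma, adjusted p = 0.0414). Ifi47 and Ifi207, genes induced by interferon, differed from their highest experiment by -1.67 and -1.62 (adjusted p = 0.0255 and 0.0394, limma), the second from an _f_at probe set.

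The others called as lowest in experiment 3 were Prtn3, a protease of neutrophil granules, with experiment means of 901, 909 and 263, the tetraspanin Tspan4 with 4758, 5074 and 2142, the zinc finger gene Zbtb16 with 816, 690.1 and 269, the G protein subunit Gna11 with 1038, 934 and 434, Gdap10 with 795, 772 and 315, Il6 and Actb. Il6, the inflammatory cytokine, read 336, 154 and 61.2 in experiment 1, 361, 143 and 98.6 in experiment 2 and 138, 39.9 and 8.6 in experiment 3, so part of its values lay at background. Actb, which encodes beta-actin, had experiment means of 2857, 3395 and 800 by its _s_at probe set, and a second probe set of the _f_at kind gave 2387, 2275 and 501. The manufacturer's 3-prime control probe set for the same gene averaged 21501, 21258 and 18159, so the probe sets of Actb disagreed. Gna11 had a second probe set above the limit on all 9 arrays, with experiment means of 371, 520 and 363, which was not called (limma above the limit, adjusted p = 0.332).

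Genes higher in experiment 3 included Car3, a carbonic anhydrase abundant in fat, at 124, 87.7 and 133 in experiment 1, 214, 151 and 166 in experiment 2 and 945, 1149.5 and 2215 in experiment 3. Its difference from experiment 1 was 3.30 ± 0.28 (limma, adjusted p = 0.0255), the widest of the 24 called genes. Camp, the antimicrobial peptide cathelicidin, read 428, 345 and 357 in experiment 1, 492, 421 and 463 in experiment 2 and 1632, 2168 and 1677 in experiment 3, with no overlap, a difference of 2.20 ± 0.17 from experiment 1 and an adjusted p of 0.022 (limma). Eln, the elastic fibre protein elastin, read 432, 334 and 420.1 in experiment 1, 329, 295 and 380.4 in experiment 2 and 947, 1006 and 1526 in experiment 3, and its difference from experiment 2 was 1.69 ± 0.17 (limma, adjusted p = 0.0394). Mfap2, a protein of the microfibrils around elastin, had experiment means of 349, 242 and 1017 (limma, adjusted p = 0.0394).

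The remaining genes called as highest in experiment 3 were S100a10 with experiment means of 3359, 3275 and 8469 and its binding partner Anxa2 with 2384, 2187 and 5459, Marcks with 1626, 1149.8 and 3106 and Marcksl1 with 261, 302 and 616, which bind membranes and actin, the matrix protein Tgfbi with 88.8, 78.6 and 229, the skeletal muscle actin Acta1 with 134, 143 and 491, the chaperone Hspa1l with 34.4, 114 and 204 and the kinase Mapk7 with 44.3, 38.4 and 184. Mapk7 and Tgfbi were near background in experiments 1 and 2. A second S100a10 probe set of the _r_at kind, above the limit on all 9 arrays, had experiment means of 147, 143 and 157. It was not called (limma above the limit, adjusted p = 0.9075).

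**Figure D5:**
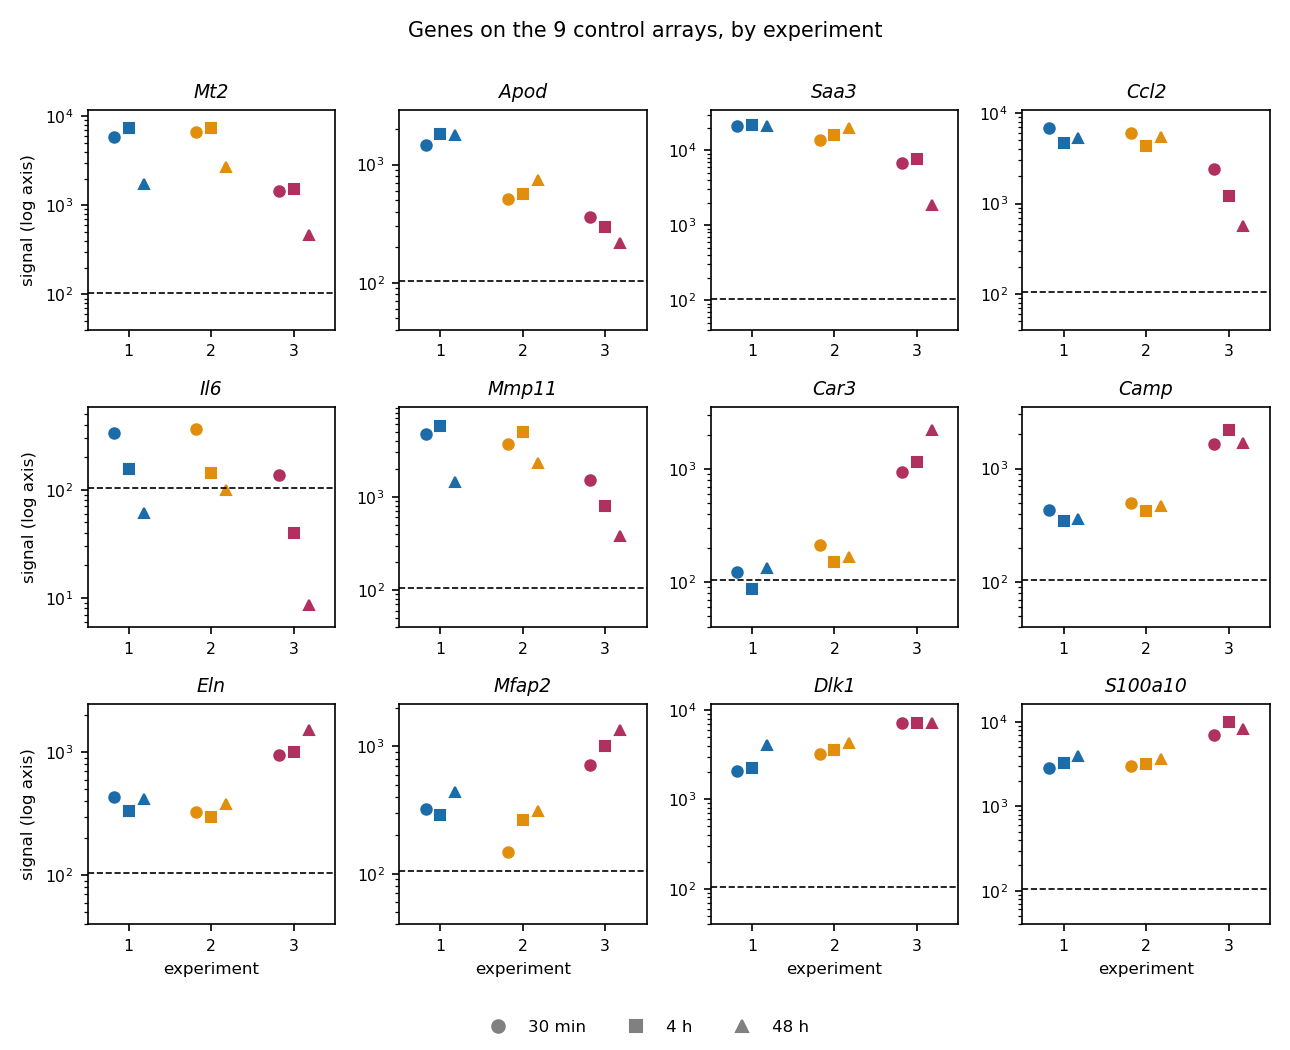
Signal of 12 genes on each control array (vertical log axis, signal units) by experiment (horizontal axis), with the collection time as the marker shape and the highest background limit, 104.1, as a dashed line. Mt2, Saa3, Ccl2 and Mmp11 have all 3 arrays of experiment 3 below the other 6 arrays, except that the 30 min array of Mmp11 lies just above the 48 h array of experiment 1, and Car3, Camp, Eln, Mfap2, Dlk1 and S100a10 have all 3 above.

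The gene lists were chosen with earlier results of these data known, so their counts of calls are a description and no test of a list. In the main test over all probe sets, limma called 1 matrix gene and 1 secreted factor by the brightest probe set. It called 0 adipocyte, 0 mitochondrial, 0 receptor and 0 fibroblast genes. The counts of list members below come from the alternative fit above the limit, unless stated otherwise. Lists were read against the background of 322 of 5453 genes (5.91%) called above the limit by limma. A gene was tested there if its mean passed the limit, so it could enter through the experiments where it was high. The members above the limit on all 9 arrays numbered 47 matrix, 15 fibroblast, 48 adipocyte, 81 mitochondrial, 38 secreted and 53 receptor genes. Calls were not counted for these alone. Of 52 matrix genes tested above the limit, 18 were called. Experiment 3 was highest in 15 of them, namely Col1a1, Col1a2, Col3a1, Col5a1, Col6a2, Col11a1, Col15a1, Sparcl1, Nid1, Nid2, Eln, Ogn, Vcan, Serpinh1 and Mmp14. Col1a2 read 3540.4, 3489.9 and 5793 in experiment 1, 3014, 3708 and 5017 in experiment 2 and 6713, 8413 and 9502 in experiment 3, Nid2, a basement membrane linker, had experiment means of 289, 335 and 1124 and Vcan, versican, 1185, 832 and 2009. The proteases Mmp3 and Mmp11 went the other way, with experiment means of 764, 809.9 and 194 and 3936, 3649.7 and 901, and Lamb1, from an _f_at probe set, was highest in experiment 1. Between the highest and the lowest experiment, the 18 genes differed by 0.71 to 2.32 (log2, standard errors 0.13 to 0.42; limma, adjusted p = 0.00711 to 0.0457). Second probe sets did not all do the same. Of the 322 called genes, 43 had 51 further probe sets above the limit on all 9 arrays, of which 12 were called and 45 had the same sign between the experiments that differed most. In the matrix list 5 genes had 6 such probe sets, and 2 of these were called, both of Col3a1. The second probe sets of Col1a2, with experiment means of 1040, 1159 and 1114, of Col1a1, with 2189, 2151 and 2498, of Col5a1, with 907, 1127 and 1401, and of Lamb1, with 968, 884 and 870, were not called (limma above the limit, adjusted p = 0.69, 0.409, 0.0679 and 0.71). Without the 48 h array of experiment 3, 18 were called, with Col6a1 and Lum gained and Col1a1 and Col11a1 lost. Without experiment 1 the number was 11, without experiment 2 it was 3 and without experiment 3 it was 0. The fibroblast list, which shares the collagens, had 6 of 16 called, all highest in experiment 3, against 7 without the 48 h array of experiment 3 and 5, 0 and 0 without experiments 1, 2 or 3. Among them Dlk1 read 2070.4, 2248 and 4026 in experiment 1, 3256, 3612 and 4269 in experiment 2 and 7167, 7209.5 and 7189 in experiment 3, Thy1 had experiment means of 885, 701 and 1384 and Twist1 411, 415 and 841. The median difference of experiment 3 from experiment 2 was 0.5 (log2) over this list, against 0.04 over all genes.

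Of 50 adipocyte genes tested above the limit, 8 were called. Lowest in experiment 3 were Plin2 with experiment means of 9529, 9608 and 4408, the transporter Slc27a1 with 972, 1304 and 672, Cebpd with 2476, 2394 and 889, Ebf1 with 909.5, 719 and 503, Retn with 16121, 14226 and 9623 and Agt with 6023, 5656 and 3020.5. Highest there were G0s2 with 616, 847 and 1636 and Acly, which makes cytosolic acetyl-CoA, with 1883, 2123 and 6755. The 8 genes differed between their highest and lowest experiments by 0.73 to 1.89 (log2, standard errors 0.15 to 0.33; limma, adjusted p = 0.0175 to 0.0472). Adipoq, Lpl, Pparg and Fabp4 were not called (limma, adjusted p = 0.839, 0.683, 0.439 and 0.979 over all probe sets). The dimmer second probe set of Dgat1 was called, with experiment means of 80.4, 243.9 and 307.8 (limma over all probe sets, adjusted p = 0.043). It was near background in experiment 1. Without the 48 h array of experiment 3, 13 adipocyte genes were called, which added Cidec, Pnpla2, Abhd5, Gpam, Thrsp, Nampt and Vegfa and lost Cebpd and Ebf1. Without experiments 1, 2 or 3 the numbers were 2, 1 and 0. Of 81 mitochondrial genes, 1 was called, Dlst, a subunit of the oxoglutarate dehydrogenase complex, with experiment means of 1595, 1657 and 2879. Its second probe set, with 1542, 1507 and 2065, was not called (limma above the limit, adjusted p = 0.142). Dlst was not called and Cox8b was without the 48 h array of experiment 3, and without any 1 experiment there were 0.

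Of 13 chemokines and cytokines tested above the limit, 3 were called, and of 18 cytokine and innate receptors 6. All of these calls were lowest in experiment 3. Over the 25 chemokines and cytokines on the array, the median difference of experiment 3 was -0.14 (log2) from experiment 1 and 0.03 from experiment 2. Of 46 secreted factors, 6 passed, with differences of 1.12 to 3.05 (log2, standard errors 0.16 to 0.56; limma, adjusted p = 0.00831 to 0.0323) between the highest and lowest experiments. Il6 was among them and lay partly at background in experiment 3. The monocyte chemokine Ccl2 read 6787, 4638 and 5266 in experiment 1, 6068, 4369.7 and 5415 in experiment 2 and 2403, 1220.2 and 568 in experiment 3, and Ccl7 had experiment means of 1659, 1492 and 697, Ptx3, a pentraxin, 1828, 1562 and 866 and Il6 184, 201 and 62. Dlk1 and the growth factor Ptn, with 250.1, 119.7 and 1127 from an _r_at probe set, were highest in experiment 3. Saa3 read 20754, 21537 and 21010 in experiment 1, 13873, 15842 and 19750 in experiment 2 and 6704, 7737 and 1867 in experiment 3, with an adjusted p of 0.0517 by limma above the limit, and Hp 34300, 37503 and 31363 in experiment 1, 31766, 28815 and 31109 in experiment 2 and 23459, 25651 and 15978 in experiment 3, with 0.0845. Without the 48 h array of experiment 3, 12 secreted factors were called, Saa3 among them, and without experiments 1, 2 or 3 there were 5, 4 and 0.

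Of 61 receptor genes, 12 were called above the limit, with differences of 0.66 to 1.28 (log2, standard errors 0.13 to 0.21; limma, adjusted p = 0.0208 to 0.0467) between the highest and lowest experiments. Lowest in experiment 3 were the cytokine, interferon and death receptors Osmr with experiment means of 2947, 2715 and 1627, Il10rb with 1286, 1347 and 728, Ifngr1 with 768, 972 and 563, Ifnar2 with 479, 434 and 202, Tnfrsf1b with 438, 433 and 239.6 and Fas with 368, 398 and 220, and the hormone receptors Ghr and Igf1r with 899.5, 641 and 407. Ghr read 4204, 4803 and 3493 in experiment 1, 3858, 3953 and 4167 in experiment 2 and 2528, 2361 and 2084 in experiment 3, and all 3 arrays of experiment 3 lay below the others. A second Ghr probe set, above the limit on all 9 arrays, had experiment means of 2447, 2674 and 2239, overlapped between experiments and was not called (limma above the limit, adjusted p = 0.486). That of Ifnar2, with 342, 420 and 156, was called and that of Thra, with 164, 147 and 178, was not (adjusted p = 0.028 and 0.538, limma above the limit). Highest in experiment 3 were Fgfr2 with 735, 534 and 1120.4, Thra with 2183, 1930.2 and 3200.2 and Rara with 125, 219.7 and 331, and Scarb1 was highest in experiment 2. Over the 22 cytokine and innate receptors, 9 had all 3 arrays of experiment 3 below the other 6, beside 6.16% over all genes. Without the 48 h array of experiment 3 the called receptors were 7, of which Ifnar2, Tnfrsf1b, Scarb1 and Rara were among the 12, and without experiments 1, 2 or 3 they were 3, 1 and 0. Cd14, which was not called without experiment 1 or experiment 3, was the called macrophage gene, with experiment means of 3075, 2723 and 1423, and the macrophage list as a whole had a median difference of 0.01 (log2) between experiments 3 and 1, with Ptprc below the limit on all arrays.

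Between the control times, limma without a term for experiment called 6 of 12422 probe sets (0.0483%), and 566 (4.56%) had an unadjusted p below 0.05. They were the immediate-early genes Ier2, Egr1, Dusp1, Fos, Egr2 and Ccn1, all highest at 30 min. Egr1 read 3206, 356 and 228 in experiment 1, 3956, 361 and 252 in experiment 2 and 5996, 195 and 118 in experiment 3, and its 3 arrays at 30 min lay far above the rest in every experiment (limma, adjusted p = 0.0049). Fos read 914, 63.2 and 39.1 in experiment 1, 1152, 52.4 and 52.4 in experiment 2 and 3242, 65 and 90.4 in experiment 3, near background at 4 h and 48 h (limma, adjusted p = 0.0154). With the experiment as a block, 5 were called and 922 had an unadjusted p below 0.05. Egr2 and Ccn1 were then not called (limma, adjusted p = 0.0658 and 0.0617), and Zfp36, another immediate-early gene, was (adjusted p = 0.0389, limma). Without experiments 1, 2 or 3 the calls numbered 0, 0 and 4, and without the 48 h control of experiment 3 there were 3, Ier2, Egr1 and Fos.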

How the data were processed

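The authors' deposited table holds 1 linear signal intensity per probe set and array, and the method that made these intensities is not given in the sources used here. The mean with 2% trimmed at each end was 499.9 on all 9 control arrays, so the deposited values were already scaled and no further normalization was applied. Groups came from the titles. The files that describe each array name its chip type and give no scan or hybridization batch. The main tests used log2(signal + 25) in limma 3.58.1 (R 4.3.3), as moderated F tests with Benjamini-Hochberg adjustment over 12422 probe sets and a threshold of 0.05. The fit above the limit was run and adjusted over its 7173 probe sets alone. Pairs of experiments were compared by moderated t tests, adjusted for each pair. The test between experiments with 1 experiment left out was also a moderated t test. The test between experiments had a term for time (4 residual degrees of freedom) and the test between times had none (6). The unit of replication is the array, and 3 arrays per group limit the precision. Of the 12422 probe sets, 396 carried several symbols and 1193 none, and these were tested but not named. By identifier, 10817 probe sets matched the RefSeq gene table, with 0 symbols changed. The gene lists and members were chosen with earlier results of these data known. Named genes were the 5 markers, the 25 brightest genes, the 3 brightest and 2 dimmest genes of each role, the called list members, the 15 genes of lowest p and 10 of widest range between experiments, and members of lists of other cell types above the limit on all 9 arrays. Further genes of known roles were named after their values were seen. The titles give arrays of 1 experiment the same number, which was taken to pair them across times. Deviations from the time means correlated at 0.069 to 0.46 (median 0.215) within experiments and at -0.265 to 0.087 between them. The deviations at a time cancel over the 3 experiments, so values between experiments offset those within and add no separate support for the pairing. Alternatives changed the pseudocount, the normalization, the genes tested, the model and the arrays left out. Summaries and figures used Python 3.11.15, pandas 2.3.3, numpy 2.4.6 and matplotlib 3.10.9.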

Additional observations from a re-analysis of the deposited data

Results flagged for a closer look

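Over the 9 control arrays, 57 quantities were screened for an array far from the rest. Of these 2 were flagged. The 57 included the genes already called between experiments, so the usual rate of 1 in 20 by chance cannot be set against this number. Car3 had its highest signal, 2214.7, in the 48 h control of experiment 3, with the next array at 1149.5 and the lowest at 87.7. Tgfbi had its highest signal, 318.6, in the same array, with the next at 187.8 and the lowest at 58.9. Both genes are also called between experiments, and this array is the one described as 4 h and titled 48 h.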

How the results depend on the processing

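The number of probe sets called between experiments by limma depended strongly on the processing. The 34 calls became 9 with log2(signal + 16), 293 with log2(signal + 100), 469 with a mean-variance trend, 406 among probe sets above the background limit and 54 with no term for time. All 34 were among the 293 and the 469, and 33 among the 406. Leaving out any 1 experiment gave 0 calls over all probe sets, with 849 to 1889 at an unadjusted p below 0.05, and 194, 94 and 0 above the limit without experiments 1, 2 and 3, settings chosen after seeing the data. Without the 48 h control of experiment 3 there were 0 calls over all probe sets and 476 above the limit, the latter also added after seeing the data. None of the 24 called genes changed direction under any of these settings in which its 2 experiments were kept. The 24 were picked for their differences on these same arrays, so a kept direction is no separate support. The 6 calls between control times became 10 above the limit, 3 without the 48 h control of experiment 3 and 0 to 4 without 1 experiment. With the experiment as a replicate block 5 were called, with Zfp36 gained and Egr2 and Ccn1 lost, and the block changed no other of the calls between times.

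The median share of variation between experiments, 37.6% over probe sets with mean signal above the limit, was 14.8% to 31 without 1 experiment (lowest without experiment 3), where the term has 1 degree of freedom in place of 2, so the sizes are not comparable. The genes above the limit on all arrays, 4836, ranged from 3956 to 5453 over the alternatives. Of the list medians, the adipocyte percentile of 92.1 became 93.3 and the receptor percentile of 49.7 became 47.4 with the median over a gene's probe sets. The secreted percentile of 49.2 became 42.9 without probe sets of the _f_at, _r_at, _s_at, _i_at and _g_at kinds. Without 1 experiment the matrix percentile of 69.2 was 63.1 to 73 and the secreted one 44.7 to 49.8.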
